A study of Mus musculus with 8 samples.

Results

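The genes described here are 40 genes of DNA replication and S phase, measured by bulk RNA sequencing in mouse jejunal mucosa. They were chosen by function from their gene symbols, with earlier results of these data known. They cover the G1/S cyclins and E2F factors (5 genes), origin recognition and licensing (10), origin firing (7), the replication fork (10), nucleotide supply (5) and the chromatin of newly made DNA (3). Each symbol matched 1 of the 56980 gene identifiers counted. Of the 40 genes, 39 reached the 10 counts in at least 4 libraries that a gene needed to be tested, alongside 15986 genes in all, and Fen1 did not.

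The libraries came from male littermates. FFA2 fl/fl mice carry floxed alleles of Ffar2, the gene of the free fatty acid receptor FFA2, and have no Cre (floxed mice below, n = 4). Adipoq-F2-KO mice carry the same floxed alleles together with Adiponectin-Cre, whose promoter is active in adipocytes (n = 4). Both genotypes ate chow until 12 weeks of age and then a Western diet with 10% fructooligosaccharides for 2 weeks, and the labels place them at ambient temperature while growing up and at thermoneutrality on the diet. The mucosa is therefore not the tissue in which the receptor was deleted. The genotypes differ both in Adiponectin-Cre and in the receptor in fat cells. Without a group that carries Cre alone, these cannot be told apart in any difference found. Mucosa was scraped from the opened jejunum, so each library mixes crypt and villus epithelium with the immune and stromal cells beneath them, and fewer cells of a type and less RNA per cell cannot be told apart in it.

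Before a cell copies its DNA, cyclin E with its kinase releases E2F factors from the retinoblastoma protein, and the activating E2F factors switch on the genes of replication. The origin recognition complex, Cdc6 and Cdt1 load the hexameric Mcm2-7 helicase onto origins. The kinase Cdc7 with Dbf4, together with Cdc45 and the GINS complex, then turns it into a moving fork at which polymerases, clamp, clamp loader and ligase make the new strands. In the small intestine most dividing epithelial cells sit in the crypts, and the villus cells that make up most of the mucosa have left the cell cycle.

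The letters by which E2F factors are known to bind DNA were looked for in the promoters, and 5 promoter windows are printed because they show the motif in several helicase genes and its absence in a gene of the same pathway. The windows run from 250 bases before to 50 bases after a transcription start, are taken from RefSeq on GRCm38.p6, and are written 5′ to 3′ on the strand of the gene. Capitals mark TTTCCCGC, TTTGGCGC, TTTCGCGC or TTTGCCGC on either strand. Mcm3 (chr1:20820263-20820562, minus strand), Mcm6 (chr1:128359656-128359955, minus strand) and Mcm5 (chr8:75109259-75109558, plus strand) encode helicase subunits, Clspn (chr4:126556730-126557029, plus strand) encodes the fork protein claspin, and Ccne1 (chr7:38107441-38107740, minus strand) encodes cyclin E1.
Mcm3: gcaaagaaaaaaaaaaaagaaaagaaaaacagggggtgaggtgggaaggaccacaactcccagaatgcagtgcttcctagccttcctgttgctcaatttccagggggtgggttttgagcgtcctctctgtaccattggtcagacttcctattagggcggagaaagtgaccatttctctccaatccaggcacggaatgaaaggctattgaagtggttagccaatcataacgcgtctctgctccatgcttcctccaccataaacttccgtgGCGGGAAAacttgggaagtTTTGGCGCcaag
Mcm6: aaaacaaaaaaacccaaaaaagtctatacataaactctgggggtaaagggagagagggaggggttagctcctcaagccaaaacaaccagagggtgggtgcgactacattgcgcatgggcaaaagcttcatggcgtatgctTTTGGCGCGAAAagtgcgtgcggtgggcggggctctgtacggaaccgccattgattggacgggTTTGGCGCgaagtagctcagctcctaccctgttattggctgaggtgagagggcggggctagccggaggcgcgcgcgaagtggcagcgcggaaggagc
Mcm5: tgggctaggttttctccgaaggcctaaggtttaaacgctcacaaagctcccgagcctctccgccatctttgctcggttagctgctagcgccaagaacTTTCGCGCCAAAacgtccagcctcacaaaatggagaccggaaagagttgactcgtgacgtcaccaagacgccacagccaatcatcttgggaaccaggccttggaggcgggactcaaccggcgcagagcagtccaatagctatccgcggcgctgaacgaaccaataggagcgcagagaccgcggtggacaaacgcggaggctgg
Clspn: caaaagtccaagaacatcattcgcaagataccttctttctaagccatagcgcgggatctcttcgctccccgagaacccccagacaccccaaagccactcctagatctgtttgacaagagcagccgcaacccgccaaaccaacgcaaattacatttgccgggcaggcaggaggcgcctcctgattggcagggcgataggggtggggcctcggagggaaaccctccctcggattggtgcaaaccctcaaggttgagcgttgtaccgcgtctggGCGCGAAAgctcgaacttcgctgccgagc
Ccne1: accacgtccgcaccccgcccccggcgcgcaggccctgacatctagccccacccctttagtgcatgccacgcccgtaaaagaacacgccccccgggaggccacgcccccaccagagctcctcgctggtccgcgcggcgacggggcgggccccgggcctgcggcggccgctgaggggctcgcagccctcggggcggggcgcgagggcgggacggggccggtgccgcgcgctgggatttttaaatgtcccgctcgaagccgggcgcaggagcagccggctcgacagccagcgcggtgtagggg

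In Mcm3 the matches began 20 and 39 bases into the transcribed sequence, counting the start base as 1, and in Clspn the single match began at base 22. The 3 matches in Mcm6 began 110, 106 and 47 bases before the start, the first and second overlapping as 1 run of capitals. The pair in Mcm5 overlapped in the same way and began 153 and 149 bases before the start. The Ccne1 window held none of these 4 strings, which says only that the letters are not in those 300 bases. Windows were found for 35 of the 40 genes, all but Ccne2, Gins1, Gins2, Mcm4 and Pole. A match was present in 15 of the 35 (42.9%), against 4.44% of 10559 tested genes and 2.6% of 27025 genes of any kind with a window. Counted by window, since a gene can have several, it was in 35.7% of the 42 windows of these genes and 2.26% of 32851 windows in the table. The CCAAT box, letters CCAAT on either strand, was in 60.0% of the 35 genes and 42.2% of the tested genes, and the GC box GGGCGG was in 77.1% and 65.9%.

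The targeted gene was low in this tissue in both genotypes. Ffar2 had 12, 18, 2 and 11 raw counts in floxed libraries 1 to 4 and 13, 12, 6 and 3 in Adipoq-F2-KO libraries 1 to 4. Its log2 fold change was 0.18 (standard error 0.56), so the jejunal counts do not check the genotype labels, as the deletion is in adipocytes. Totals per library ran from 6007654 to 21712776 counts, of which the 40 genes took 1489 to 5892 counts, or 0.0247% to 0.0300%. Floxed 3 and Adipoq-F2-KO 3 and 4 were shallow, with under 10000000 counts, and the other 5 libraries were deep. Markers of the labelled tissue were abundant: the villus enterocyte list summed to between 746801 and 835949 normalized counts in every library, with a median log2 fold change of -0.03. Floxed 3 stood apart, with 30426 normalized counts over 10 smooth muscle genes against 3768 to 12587 in the other 7 libraries, and 736 over 6 adipose genes against 9.09 to 312.

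The comparison of the genotypes asked whether replication genes differed in the mucosa of mice without adipocyte FFA2. Most of the tested genes were somewhat higher in Adipoq-F2-KO mice and none passed the test after adjustment over all genes. The log2 fold change, Adipoq-F2-KO over floxed, was above 0 in 31 of 39 genes and below 0 in 8, with a median of 0.20 (1.15-fold), while over all 15986 tested genes 48.5% were above 0 and the median was -0.01. Summed over the 40 genes, normalized counts (counts divided by the size factor of the library) were 3027, 3106, 3114 and 2961 in floxed libraries 1 to 4 and 3307, 3373, 3656 and 3559 in Adipoq-F2-KO libraries 1 to 4. On these default size factors every Adipoq-F2-KO library lay above every floxed library in the sum, with means of 3474 ± 162 and 3052 ± 72.1 (SD, n = 4 each). With size factors from epithelial genes the sums overlapped, at 3219, 3673, 2909 and 2863 in floxed and 3085, 3354, 3776 and 3544 in Adipoq-F2-KO libraries. With every tested gene weighted alike, as the mean log2(normalized count + 1) centred on the 8 libraries, the gap nearly closed, at 0.0175 in floxed 3 and 0.0199 in Adipoq-F2-KO 3. The sum carries no test, because the genes share libraries and were grouped with earlier results of these data known.

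No gene of the 39 had an adjusted p below 0.05 (DESeq2, Benjamini-Hochberg over all tested genes), where 6 of all tested genes did (0.0375%). Before adjustment, 3 genes had a p below 0.05 and were higher in Adipoq-F2-KO mice, Ccne2, Mcm4 and Clspn, which is 7.69% of 39 against 1.65% of all tested genes, and none was lower, against 1.38%. By edgeR's quasi-likelihood test 4 genes had an unadjusted p below 0.05 (1.63% of all tested genes were higher at that p), and by limma-voom 5 genes did (2.16%). All of these were higher, and none passed adjustment by either tool. In 4 genes, Ccne1, E2f8, Mcm4 and Slbp, all 4 Adipoq-F2-KO libraries lay above all 4 floxed libraries (10.26%, against 1.1% of all tested genes), and in none did they lie below (1.02% of all tested genes). The standard error of a fold change ran from 0.14 to 0.60 with a median of 0.25. A difference of the median size was thus below the standard error of most single genes, and the 95% interval held 0 in 36 of the 39.

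**Figure D1:**
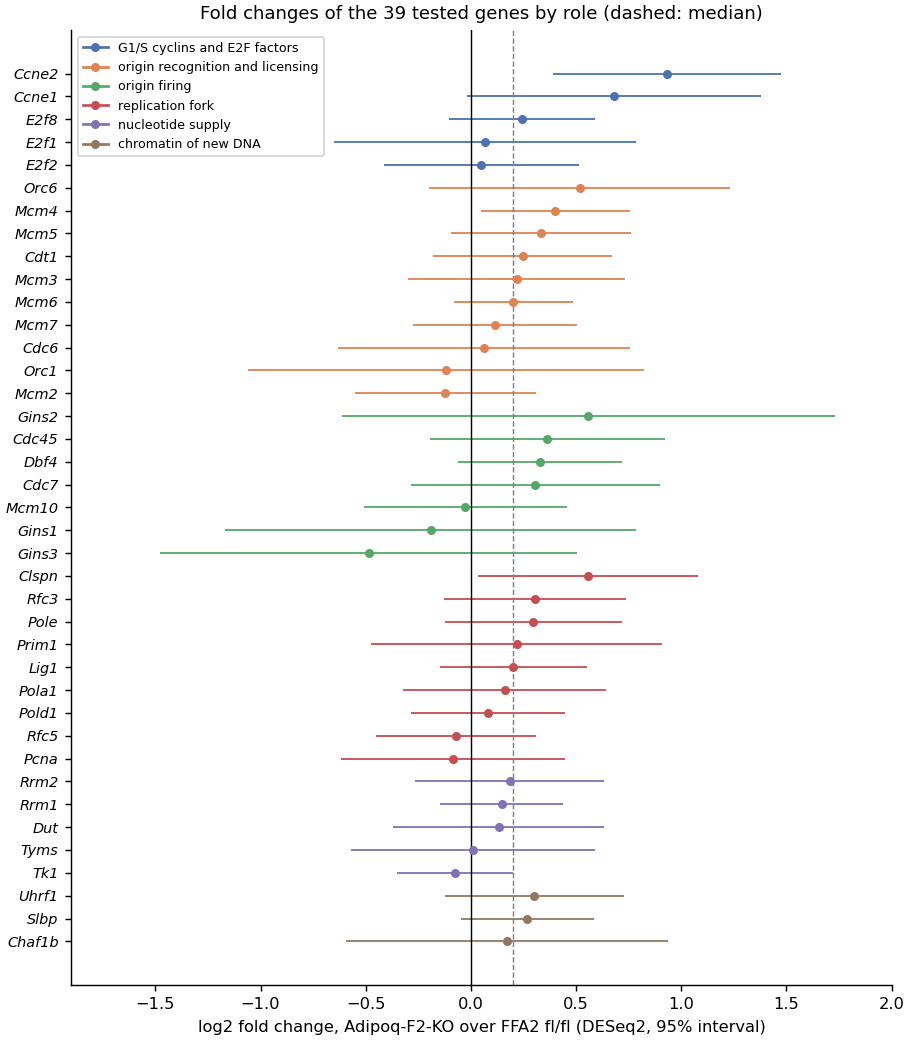
Log2 fold change of each of the 39 tested genes (horizontal axis, Adipoq-F2-KO over FFA2 fl/fl, points) with its 95% interval (bars), coloured by role, with 0 as a solid line and the median of 0.20 as a dashed line. The points of 31 genes lie right of 0, and only the intervals of Ccne2, Mcm4 and Clspn lie wholly above it.

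The scaling of the libraries moved the median of the S phase genes and that of all genes together. With size factors taken from 20 general epithelial genes, so that values are read per amount of epithelial RNA, the median was 0.11 beside -0.08 for all genes, 26 of 39 genes were above 0, only Ccne2 had an unadjusted p below 0.05 (0.576% of all tested genes were then higher at that p), and only Ccne1 had no overlap, where 0.413% of all tested genes lay wholly above and 1.67% wholly below. The median of the S phase genes exceeded that of all tested genes by 0.20 on this scaling and by 0.21 with the default size factors. The calls of all genes turned with the scaling, from 264 higher and 221 lower to 92 higher and 350 lower.

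The genes that open S phase held the largest single differences. Cyclins E1 and E2 activate Cdk2 at the G1/S boundary. Ccne2 had 76.9, 111, 153 and 63.5 normalized counts in floxed libraries 1 to 4 and 228, 143, 196 and 188 in Adipoq-F2-KO libraries 1 to 4. Only floxed 3 reached into the Adipoq-F2-KO range, above the second knockout library, and the means were 101 ± 39.8 and 189 ± 35.0 (SD, n = 4). The log2 fold change of Ccne2 was 0.93 (standard error 0.28; DESeq2, unadjusted p = 0.000763, adjusted p = 0.487). Its p stayed below 0.05 before adjustment in each of 17 alternatives, with an adjusted p between 0.00135 and 1.00 over the DESeq2, edgeR and limma fits. The adjusted p of 0.00135 came from the fit without floxed 3, the library rich in smooth muscle and adipose RNA, in which 0.644% of all tested genes passed. The gene Ints8 shares 609 bases of exon with Ccne2 on the opposite strand and had a log2 fold change of 0.07.

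Ccne1 had fewer counts and no overlap. Its normalized counts were 12.7, 17.9, 18.8 and 20.1 in floxed libraries 1 to 4 and 22.9, 32.2, 32.0 and 22.6 in Adipoq-F2-KO libraries 1 to 4, so that the lowest knockout library stood above the highest floxed one. The raw counts behind them ran from 9 to 52, and the log2 fold change of 0.68 had an interval from -0.02 to 1.38 (DESeq2, adjusted p = 1.00). Per kilobase of exon, Ccne2 (28.9 floxed, 54.0 Adipoq-F2-KO) was the more abundant of these cyclins in both genotypes, with Ccne1 at 6.54 and 10.3 normalized counts per kilobase.

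The E2F factors differed less in mean. E2f8, an atypical repressor of E2F target genes, had 105, 127, 85.7 and 128 normalized counts in floxed libraries 1 to 4 and 129, 133, 142 and 137 in Adipoq-F2-KO libraries 1 to 4. The genotypes did not overlap in E2f8, but floxed 2 and 4 and Adipoq-F2-KO 1 were nearly equal, and the log2 fold change was 0.24 (standard error 0.18.) E2f2, an activator, had 123, 144, 178 and 243 in floxed libraries and 172, 210, 148 and 175 in Adipoq-F2-KO libraries, a log2 fold change of 0.05, with every knockout library inside the floxed range. The other activator, E2f1, had 24.8, 23.2, 20.9 and 17.8 in floxed and 18.9, 18.6, 22.0 and 35.7 in Adipoq-F2-KO libraries, and its log2 fold change of 0.07 rested on Adipoq-F2-KO 4. Summed over the 5 genes of this role, the floxed libraries held 343 to 472 and the Adipoq-F2-KO libraries 537 to 571 normalized counts. Without Ccne2 the sums were 266 to 409 and 343 to 394, and floxed 4 stood above every knockout library, so the gap came from Ccne2.

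**Figure D2:**
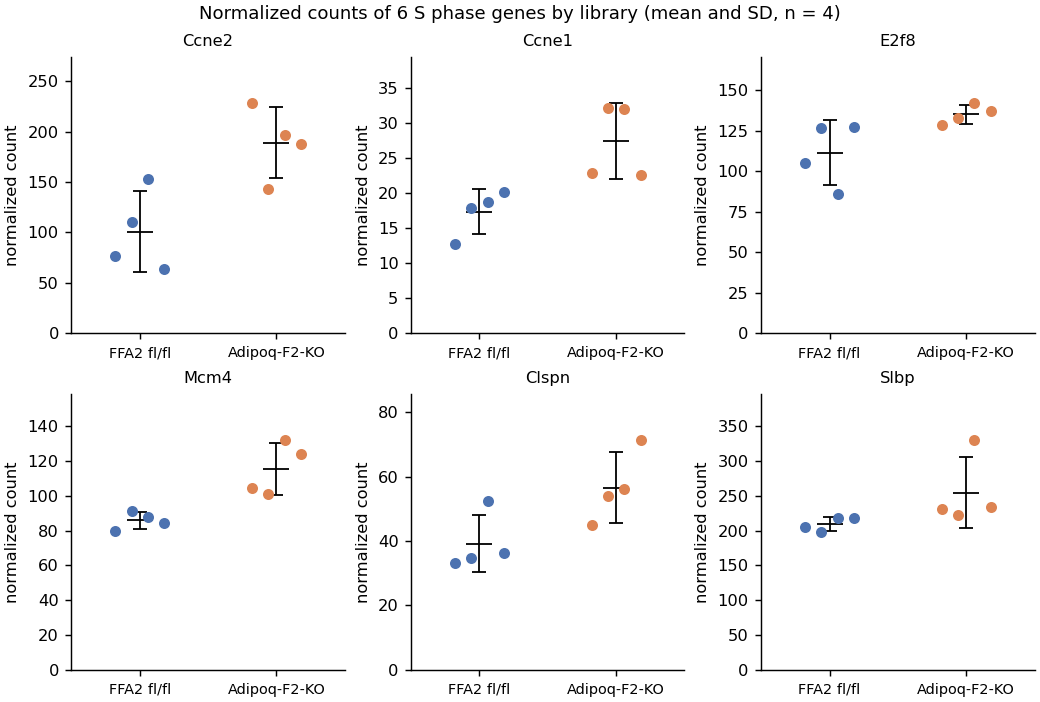
Normalized counts (vertical axes, from 0) of Ccne2, Ccne1, E2f8, Mcm4, Clspn and Slbp in the 4 FFA2 fl/fl (blue) and 4 Adipoq-F2-KO (orange) libraries, each point 1 library, with mean and SD. Ccne1, E2f8, Mcm4 and Slbp show no overlap, while floxed 3 reaches into the knockout range in Ccne2 (153) and Clspn (52.3).

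Origin recognition and licensing gave 8 of 10 genes above 0 with a median log2 fold change of 0.21. Mcm4, a helicase subunit, had 80.0, 91.2, 87.8 and 84.4 normalized counts in floxed libraries 1 to 4 and 104, 101, 132 and 124 in Adipoq-F2-KO libraries 1 to 4. Its floxed libraries were tightly grouped (85.8 ± 4.80, SD, n = 4) and all knockout libraries stood above them (115 ± 15.1, SD, n = 4). The log2 fold change of Mcm4 came to 0.40, standard error 0.18 (DESeq2, unadjusted p = 0.0266, adjusted p = 1.00). The unadjusted p of Mcm4 stayed below 0.05 in 10 of 17 alternatives.

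The remaining helicase subunits did not share 1 value. Mcm6, the most abundant of them per kilobase of exon, had 181, 174, 192 and 174 normalized counts in floxed and 191, 194, 252 and 197 in Adipoq-F2-KO libraries, a log2 fold change of 0.20. Only Adipoq-F2-KO 1 fell inside the floxed range of Mcm6, and Adipoq-F2-KO 3 stood far above the rest. Mcm2 ran the other way, with 111, 167, 109 and 157 in floxed and 106, 112, 150 and 145 in Adipoq-F2-KO libraries, a log2 fold change of -0.12, and overlapping genotypes. The log2 fold changes of Mcm5 (0.33), Mcm3 (0.22) and Mcm7 (0.12) were above 0, each with standard errors of 0.20 to 0.26 and overlapping genotypes. The hexamer has its subunits in equal number, and their fold changes ran from -0.12 to 0.40 with intervals that all overlap.

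The loading factors also overlapped between the genotypes. Cdt1, which brings the helicase to the origin, had a log2 fold change of 0.25 (standard error 0.22), and Cdc6, the loading ATPase, 0.06 (standard error 0.35). Of the origin recognition subunits, Orc6 had 0.52 and Orc1 -0.12, with standard errors of 0.36 and 0.48 and 106 raw counts of Orc1 in all 8 libraries together. The sum over the 10 licensing genes ran from 758 to 850 normalized counts in floxed and from 798 to 1037 in Adipoq-F2-KO libraries, with overlap through Adipoq-F2-KO 1.

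Origin firing was the role with the most genes below 0, 3 of 7. Mcm10, a replication initiation factor, was the most abundant of them per kilobase of exon, with 187, 254, 130 and 203 normalized counts in floxed and 129, 215, 234 and 194 in Adipoq-F2-KO libraries. Its lowest library in each genotype was near 130, and the log2 fold change was -0.03 (standard error 0.25.) Dbf4, the activating subunit of the Cdc7 kinase, had 71.5, 66.4, 75.3 and 60.4 in floxed and 93.1, 90.5, 72.1 and 79.0 in Adipoq-F2-KO libraries. In Dbf4 only Adipoq-F2-KO 3 fell among the floxed libraries, and the log2 fold change was 0.33 (standard error 0.20.) Cdc7 itself (0.31) and the helicase cofactor Cdc45 (0.36) had log2 fold changes of like size with standard errors of 0.30 and 0.29, each with 3 of 4 knockout libraries above all floxed libraries.

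The 3 GINS subunits, parts of the active helicase, were near the limit of what the depth could show. Gins3 had the most negative log2 fold change of all 39 genes, -0.49 with a standard error of 0.51, on 12.1, 10.0, 16.7 and 12.4 normalized counts in floxed and 6.32, 12.4, 8.01 and 7.52 in Adipoq-F2-KO libraries. Of the knockout libraries, 3 lay below all floxed libraries and Adipoq-F2-KO 2 lay among them, and 4 of the 8 raw counts of Gins3 were 8 or lower. Gins1 had -0.19 and Gins2 0.56, with standard errors of 0.50 and 0.60. Gins2 had 79 raw counts in all and 2758 bases of exon in common with Gse1, a gene with 11587 counts on the opposite strand. A change of the median size, 1.15-fold, was too small for the 95% interval to exclude 0 in these 3 genes, as in all 39 tested genes.

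At the replication fork, 7 of the 9 tested genes were above 0, with a median log2 fold change of 0.20. Clspn encodes claspin, which links fork proteins to the checkpoint kinase Chk1. Its normalized counts were 33.3, 34.8, 52.3 and 36.4 in floxed libraries 1 to 4 and 45.0, 53.9, 56.1 and 71.4 in Adipoq-F2-KO libraries 1 to 4. Floxed 3 was high among the controls and stood above Adipoq-F2-KO 1, and the other 3 floxed libraries lay below every knockout library. The log2 fold change of Clspn was 0.56 (standard error 0.27; DESeq2, unadjusted p = 0.0372, adjusted p = 1.00), and its unadjusted p stayed below 0.05 in 7 of 17 alternatives.

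Among the fork genes with the highest counts, no difference stood out. Rfc5, a clamp loader subunit, had 224, 201, 142 and 169 normalized counts in floxed and 206, 178, 184 and 137 in Adipoq-F2-KO libraries, a log2 fold change of -0.07, with both genotypes spread over the same range. Lig1, the ligase that joins Okazaki fragments, had 111, 93.8, 100 and 83.6 in floxed and 114, 113, 118 and 99.6 in Adipoq-F2-KO libraries, a log2 fold change of 0.20. Here 3 knockout libraries lay above all floxed libraries and Adipoq-F2-KO 4 lay among them. Pcna, the sliding clamp, had a log2 fold change of -0.08 (standard error 0.27).

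The polymerases and the second clamp loader gene were also near the median. Log2 fold changes were 0.30 for Pole (leading strand polymerase), 0.08 for Pold1 (lagging strand polymerase), 0.16 for Pola1 (the polymerase that starts each strand) and 0.22 for its primase partner Prim1, with standard errors from 0.19 to 0.35. Rfc3 had 0.30 with a standard error of 0.22, with 3 of 4 knockout libraries above all floxed libraries. Fen1, the flap endonuclease, had 4, 5, 1 and 2 raw counts in floxed and 3, 8, 1 and 0 in Adipoq-F2-KO libraries, and 1909 of its 2422 exon bases are shared with the antisense gene Gm10143. No fold change is given for Fen1, which did not reach 10 counts in any library. Summed over the 10 fork genes, the libraries ran from 662 to 806 in floxed and from 770 to 805 in Adipoq-F2-KO mice, the highest of all being floxed 1.

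Nucleotide supply was the role with the smallest shift, a median log2 fold change of 0.13 over 5 genes and none with an unadjusted p below 0.05. Rrm1, the large subunit of ribonucleotide reductase, had 146, 141, 182 and 149 normalized counts in floxed and 158, 164, 184 and 171 in Adipoq-F2-KO libraries. Without floxed 3 all knockout libraries of Rrm1 lay above the floxed ones, and with it they did not, at a log2 fold change of 0.15 with a standard error of 0.15. Tk1, the thymidine kinase of the salvage pathway, had 172, 153, 159 and 157 in floxed and 161, 144, 152 and 152 in Adipoq-F2-KO libraries. Tk1 was the most precisely measured of the 39 genes, and 3 of its 4 knockout libraries lay below all floxed libraries, at a log2 fold change of -0.08 with an interval from -0.35 to 0.20. Rrm2, the small reductase subunit, had 0.18, Dut, which removes dUTP, 0.13, and Tyms, which makes dTMP, 0.01, with standard errors of 0.23, 0.26 and 0.30.

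All 3 genes of the chromatin of new DNA were above 0, with a median log2 fold change of 0.27. Slbp binds the stem-loop of replication-dependent histone mRNAs and is needed for their processing. It had 205, 198, 217 and 217 normalized counts in floxed libraries 1 to 4 and 231, 222, 330 and 233 in Adipoq-F2-KO libraries 1 to 4. All knockout libraries stood above all floxed libraries, Adipoq-F2-KO 2 by little, and Adipoq-F2-KO 3 was far above the others, at a log2 fold change of 0.27 with a standard error of 0.16. Uhrf1, which guides the maintenance methyltransferase to hemimethylated DNA, had 87.2, 78.5, 71.1 and 61.1 in floxed and 91.6, 75.6, 96.1 and 113 in Adipoq-F2-KO libraries, a log2 fold change of 0.30, with Adipoq-F2-KO 2 among the floxed libraries. Chaf1b, a subunit of the histone chaperone CAF-1, had 19.4, 16.9, 31.4 and 14.7 in floxed and 22.1, 21.7, 14.01 and 30.1 in Adipoq-F2-KO libraries, with overlapping genotypes and a log2 fold change of 0.17.

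**Figure D3:**
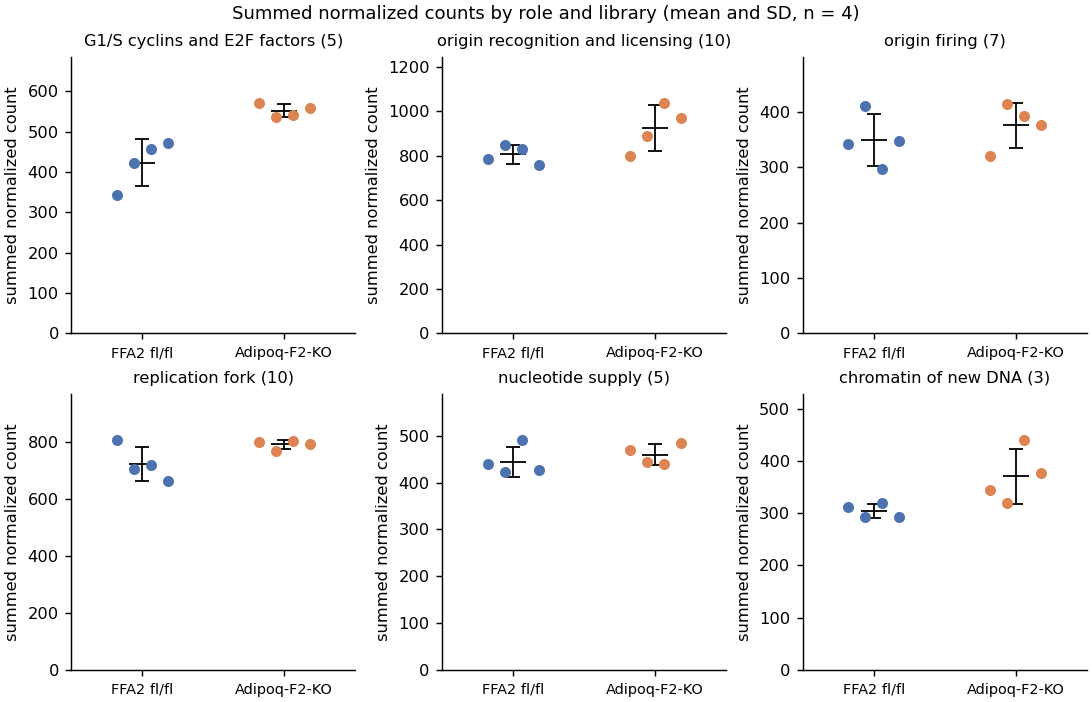
Normalized counts summed over the genes of each role (vertical axes, from 0; number of genes in brackets) in each FFA2 fl/fl (blue) and Adipoq-F2-KO (orange) library, with mean and SD, n = 4. Only the G1/S cyclins and E2F factors, 343 to 472 against 537 to 571, leave a gap between the genotypes, and without Ccne2 they overlap there too (266 to 409 against 343 to 394), as they do in every other role.

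Across the genes, normalized counts per kilobase of exon ran from about 1.70 in floxed and 2.38 in Adipoq-F2-KO mice for Gins2 to 39.4 and 37.8 for Rfc5 and 38.7 and 44.7 for Mcm6 among those tested. The spread between mice of a genotype was alike, a median coefficient of variation of 18.0% in floxed and 18.5% in Adipoq-F2-KO mice. Adipoq-F2-KO 4 was the highest of all 8 libraries in 11 genes and the lowest in 3, and Adipoq-F2-KO 3 the highest in 10 and the lowest in 5. Both are shallow. Floxed 4, a deep library, was the lowest in 13 and the highest in 1. In 13 of the 40 genes exons overlap those of another gene, mostly on the opposite strand, which may raise or lower their counts. The strand setting of the counting is not given in the sources used here, and the handling of reads in shared exons was not checked. Over the 27 genes without such overlap, 22 were above 0 with a median log2 fold change of 0.17, 2 had an unadjusted p below 0.05 (7.41%, against 1.65% of all tested genes, higher) and 2 had no overlap between genotypes (7.41%, against 1.1%).

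Genes with and without the E2F letters had fold changes of like size. The 15 genes with an E2F match had a median log2 fold change of 0.20, 13 of them above 0, and the 19 tested genes with a window and no match had a median of 0.17, 14 above 0. Among the printed promoters, Mcm3, Mcm5 and Mcm6 with matches had log2 fold changes of 0.22, 0.33 and 0.20 and Clspn 0.56, while Ccne1 without one had 0.68. No test was made of this difference.

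Genes with neighbouring functions had medians above 0 that were lower than that of the S phase genes, and none of these differences was tested. Of 47 other replication factors tested, 39 were above 0 with a median log2 fold change of 0.16, and 3 higher (6.38%, against 1.65% of all tested genes) and 1 lower (2.13%, against 1.38%) had an unadjusted p below 0.05. The higher genes were Topbp1 (0.32), which helps to fire origins and activates the checkpoint kinase ATR, the helicase gene Blm (0.54) and Dnmt1 (0.28). Dnmt1 encodes the maintenance methyltransferase. The lower gene was Donson (-0.37), a replisome factor. All 4 knockout libraries lay above all floxed libraries in 3 of the 47 genes (6.38%, against 1.1% of all tested genes), Topbp1 among them. They lay below in 1, Donson (2.13%, against 1.02%). Of 20 other genes of nucleotide supply 15 were above 0 (median 0.08), and Mthfd1 (0.34), a folate enzyme, was the single gene with a p below 0.05 (5.00%). Of 28 genes of G1/S control 21 were above 0 (median 0.11), with cyclin D1 (Ccnd1, 0.57) and the Cdk inhibitor p27 (Cdkn1b, 0.39) at a p below 0.05 (7.14%). None of these genes passed adjustment.

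The genes of G2 and mitosis, which follow S phase in the same cells, leaned the same way. The log2 fold change was above 0 in 41 of 42 (48.5% of all tested genes were), with a median of 0.25. An unadjusted p below 0.05 was found in 8, all higher (19.0%, against 1.65% of all tested genes), and 5 had no overlap (11.9%, against 1.1%), but none passed adjustment. Ccnb2, a mitotic cyclin, had 52.7, 54.8, 35.5 and 51.9 normalized counts in floxed and 91.6, 74.4, 90.1 and 67.7 in Adipoq-F2-KO libraries, with no overlap and a log2 fold change of 0.69. The ubiquitin-conjugating enzyme gene Ube2c had 0.57, the topoisomerase gene Top2a 0.33 and the proliferation marker Mki67 0.35. These lists share their libraries with the S phase genes and are not separate evidence.

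Markers of other cell types were read beside these values, and their part in the values was not tested except where stated. The 20 tested genes of crypt stem and progenitor cells had a median log2 fold change of -0.03, 9 of them above 0, and summed to 4561 to 5957 normalized counts in floxed and 4868 to 5689 in Adipoq-F2-KO libraries. Of the B cell and germinal centre list, whose germinal centre cells also divide, 11 of 13 tested genes were above 0 with a median of 1.02, with no gene at an unadjusted p below 0.05. The sums were 689 to 3494 against 1561 to 2720 and came mostly from the plasma cell gene Jchain and from Bcl6, and without these the other genes summed to 48.0 to 566 against 218 to 782, also with overlap. Of that list, Mzb1 had 3 or fewer raw counts in every library. All 9 tested macrophage genes were above 0 (median 0.61, sums 183 to 596 against 403 to 778), and 1 of them, Lyz2 (0.95), had an unadjusted p below 0.05 (11.1%, against 1.65% of all tested genes). Of T and intraepithelial lymphocyte genes 12 of 14 were above 0 (median 0.15, sums 1564 to 2658 against 1839 to 2661), and Cd4 (1.10) and Cd2 (1.35) had an unadjusted p below 0.05 (14.3%, against the same 1.65%). None of these genes passed adjustment, and Lyz2, Cd4 and Cd2 were named after their values were seen.

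All 10 smooth muscle genes were below 0, with a median of -0.85 and sums of 3768 to 30426 against 4149 to 12587. The direction rested on floxed 3: without it 9 of the 10 were above 0, with a median of 1.15 and floxed sums of 3768 to 8323. With a smooth muscle score in the model, the median of the S phase genes was 0.19, 30 of 39 were above 0 and Ccne2 and Mcm4 kept an unadjusted p below 0.05 (1.89% of all tested genes were higher at that p). Of the 6 adipose genes, 2 were tested, both below 0, with sums of 9.09 to 736 against 19.7 to 312, highest in the 3 shallow libraries. Without floxed 3 this direction also turned, with both genes above 0 and floxed sums of 9.09 to 20.03. No defining marker of smooth muscle or macrophages was at 0 in every library. Epithelial genes had a median of 0.02 and Paneth cell genes -0.02.

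**Figure D4:**
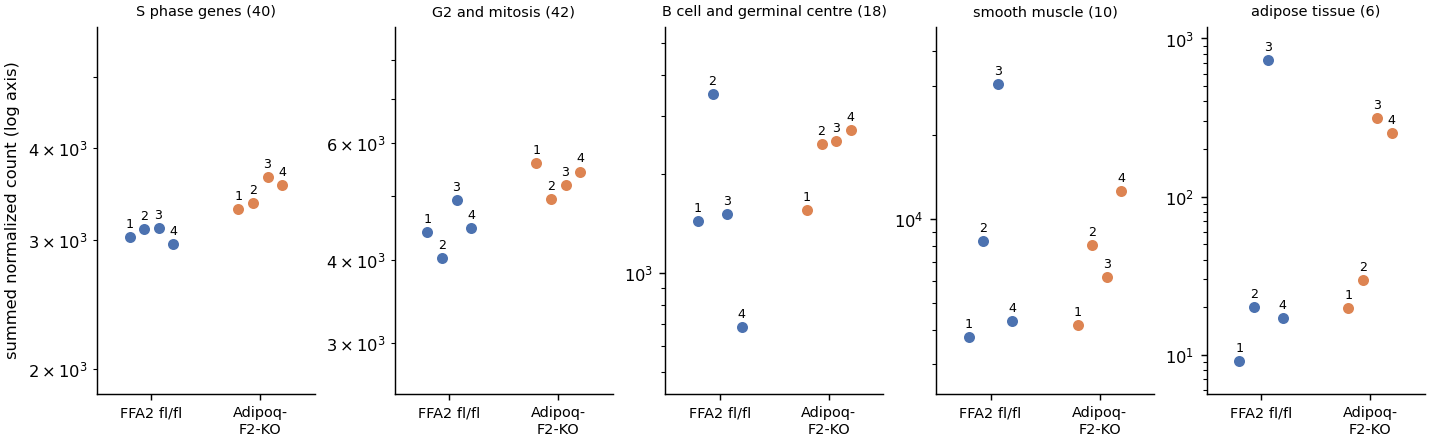
Normalized counts summed over the S phase genes and over 4 other lists (logarithmic vertical axes, number of genes in brackets) in each FFA2 fl/fl (blue) and Adipoq-F2-KO (orange) library, with replicate numbers beside the points. The S phase genes (2961 to 3114 against 3307 to 3656) and the G2 and mitosis genes (4028 to 4929 against 4951 to 5605) do not overlap between genotypes on the default size factors, and the S phase genes do with epithelial ones, while floxed 3 stands out in smooth muscle and adipose tissue.

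Depth and single libraries changed counts more than medians. In the 5 deep libraries, 3 floxed and 2 Adipoq-F2-KO, 29 of 39 genes were above 0 with a median of 0.17, and 18 had all knockout libraries above all floxed libraries (11.2% of all tested genes did). Without floxed 3, the median was 0.23, 11 genes had no overlap (4.54% of all tested genes) and Ccne2 passed adjustment, as did 103 of all tested genes (0.644%) against 6 with all libraries. Over the 8 fits that each left out 1 library the median lay between 0.16 and 0.23, and over all 18 alternatives it stayed above 0. In 28 of the 39 genes the sign was the same in every fit that included them, and in 11 it turned in at least 1, all of them genes with a log2 fold change between -0.19 and 0.16.

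**Figure D5:**
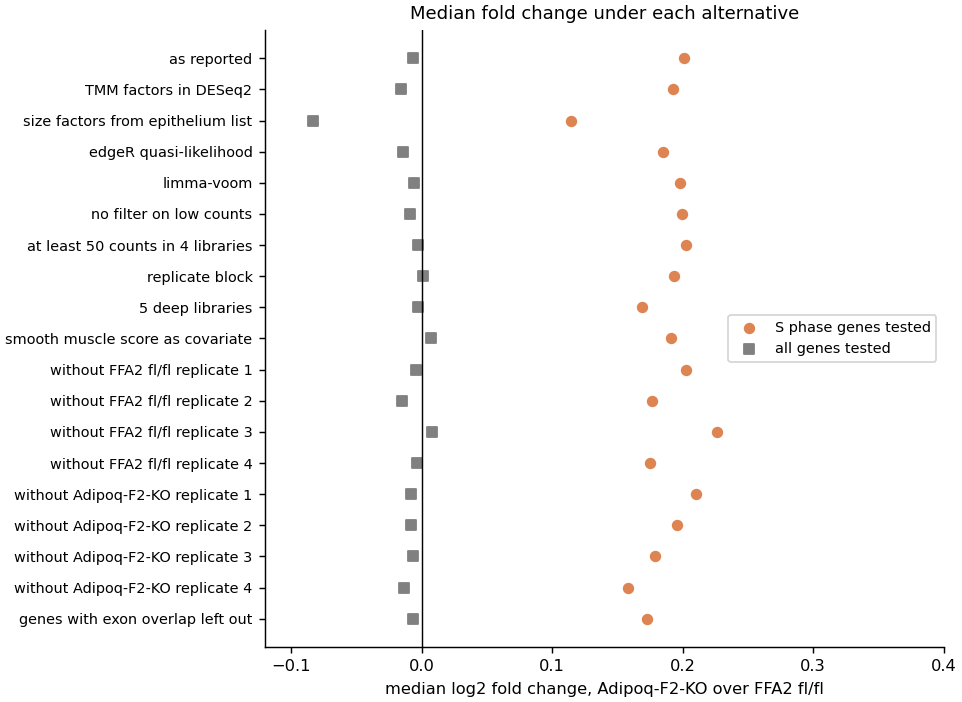
Median log2 fold change (horizontal axis, Adipoq-F2-KO over FFA2 fl/fl) of the S phase genes tested (orange circles) and of all genes tested (grey squares) as reported and under each alternative, 1 per line. The S phase genes stay between 0.11 and 0.23 and all genes between -0.08 and 0.01.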

How the data were processed

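RNA from jejunal mucosa of 4 FFA2 fl/fl and 4 Adipoq-F2-KO mice was read as single-end 75 bp poly(A)-selected stranded libraries. The authors trimmed reads with Trimmomatic, aligned them with STAR to the mouse genome (GRCm38 and mm10 are named in the submitters' processing notes) and deposited whole-number counts per Ensembl gene from featureCounts, neither normalized nor pooled. Tool versions, the annotation release and the strand setting are not given in the sources used here. Of 56980 identifiers, 4855 (0.71% of counts) are absent from the GENCODE M21 annotation used for symbols and exon overlap. The only coordinates given are those of the printed RefSeq promoter windows.

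Genotype and replicate number were taken from the sample titles. DESeq2 1.42.0 in R 4.3.3, the tool the study used, was run on the deposited counts of every gene that reached 10 counts in 4 or more libraries. The model held genotype alone, size factors were the defaults, the Wald test was two-sided, and p-values were adjusted by the Benjamini-Hochberg (BH) method over all tested genes. edgeR 4.0.16 (quasi-likelihood), limma 3.58.1 (voom), TMM factors, size factors from epithelial genes, filters, a replicate block, a smooth muscle covariate, the deep libraries alone and leaving out each library were alternatives. A difference was also described by whether the libraries of the genotypes overlapped. The code was tested on simulated data.

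The 40 genes, the other lists and the tests were chosen with earlier results of these data known. Per-library values are given for genes without overlap or with an unadjusted p below 0.05, for up to 2 further genes per role with the highest mean count and for the most negative fold change, and up to 4 genes with the smallest p below 0.05 are named from each neighbouring list. Lin54 (G1/S control) and Trgc1 (T cells) matched no symbol. The values of 1 listed gene are not reported here. Red blood cell precursor genes were counted too little to describe, with 1 of 7 tested (log2 fold change -0.65). No pair of libraries within a genotype agreed within sampling noise: chi-square per gene was 5.04 to 56.6 over the 12 pairs, and pairs across genotypes were not compared. The p-values measure the spread between these 8 samples, and without molecular identifiers the floor of 3 counts covers counting error only.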

Additional observations from a re-analysis of the deposited data

Results flagged for a closer look

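In groups of 4, a library was picked out when its gap to the nearest other library, as a share of the whole range, exceeded Dixon's 95% critical value, which chance does in about 1 in 20 groups. This held for 9 of 102 groups. Floxed 3 was high in Pola1 (121 normalized counts), Clspn (52.3), Ccnd1 (291) and Mki67 (795) and low in Ccnb2 (35.5). Adipoq-F2-KO 3 was high in Mcm6 (252) and Slbp (330) and low in Gins2 (4.00). Floxed 4 was low in Gins2 (3.10), from 4 raw counts. Both libraries that account for 8 of these values are shallow, and floxed 3 also held the most smooth muscle and adipose RNA. The part of depth or tissue content in these values was not tested.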

How the results depend on the processing

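The median log2 fold change of the S phase genes (0.20) stayed above 0 in all 18 alternatives. It moved by more than 0.0834 only with size factors from epithelial genes (0.11), which lowered the median of all genes too. That limit, passed narrowly, is the pooled SD within genotypes of the libraries' mean centred log2 values, not a spread of the median. The excess of the S phase median over that of all genes was 0.21 as reported, 0.20 with epithelial size factors, and 0.17 to 0.22 over all alternatives. No gene passed adjustment except Ccne2 without floxed 3, so that the leave-out counts were 0 to 1, while 2 to 103 of all tested genes passed in those fits, 103 (0.644%) without floxed 3. The 3 genes higher at an unadjusted p (1.65% of all tested genes) became 1 with epithelial size factors (0.576%), the deep libraries (2.56%) or the replicate block (1.61%), 5 with limma-voom (2.16%), and 1 to 3 when a library was left out (0.926% to 4.38%). The 4 genes without overlap, all above (1.1% of all tested genes), became 1 with epithelial size factors (0.413%), 18 in the deep libraries (11.2%), 2 with at least 50 counts (1.04%), 2 with exon-overlapping genes left out (1.1%), and 4 to 11 when a library was left out (1.88% to 4.54%), the highest being without floxed 3. Among these, 1 gene, Tk1, lay wholly below without Adipoq-F2-KO 1 (2.25% of all tested genes did). Without Adipoq-F2-KO 2, 1 gene, Gins3, did (2.6% of all tested genes). Fewer libraries raise this share over all genes. The sign turned in 11 genes. With epithelial size factors E2f1 was -0.0152, E2f2 -0.0054, Cdc6 -0.0316, Pold1 -0.0065 and Tyms -0.0832. With limma-voom E2f1 was -0.0378 and Cdc6 -0.0835, and with edgeR Tyms was -0.0247. In the deep libraries E2f1 was -0.24, Cdc6 -0.41, Gins1 0.17 and Pola1 -0.0106. With the smooth muscle score Cdc6 was -0.0028, Pcna 0.0071 and Tyms -0.0124. When a library was left out the ranges were -0.16 to 0.19 for E2f1, -0.0846 to 0.29 for E2f2, -0.33 to 0.0321 for Orc1, -0.13 to 0.34 for Cdc6, -0.17 to 0.13 for Mcm10, -0.23 to 0.10 for Pcna, -0.16 to 0.0405 for Rfc5 and -0.092 to 0.13 for Tyms. Without floxed 3, Ccnd1 (0.91) and Mki67 (0.47) also passed adjustment, Ccnd1 in the deep libraries too (0.78). With the replicate block Tyms was -0.0193 and the median 0.19. Replicate numbers come from the sample titles and are not known to pair the mice. Deviations of the 4 same-numbered pairs correlated between -0.42 and 0.54. Whether mice shared a litter or cage cannot be read from these numbers. The cause of these shifts was not tested.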
